A study of Mus musculus with 2 samples.

Results

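The Angptl7-positive MHC class II cells were 150 of the 11660 cell barcodes that passed the quality filter in the bladder of an aged mouse. They were chosen by UMI counts (unique molecular identifiers, which count single captured transcripts). Each held at least 3 UMIs of Angptl7, at least 2 UMIs over the class II genes H2-Ab1, H2-Eb1 and Cd74 together, 0 UMIs of the leukocyte gene Ptprc and under 2 UMIs over the endothelial genes Pecam1 and Cdh5. Of these members, 25 were among 1741 passing barcodes of the Tomato-positive library (Tom+, 1.44%) and 125 were among 9919 of the Tomato-negative library (Tom-, 1.26%). The Ptprc criterion removed 0 cells, and the endothelial criterion removed 1 Tom+ and 5 Tom- cells. The values of Angptl7, H2-Ab1, H2-Eb1, Cd74, Ptprc, Pecam1 and Cdh5 chose the members, so their levels below are a description.

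Both libraries came from the bladder of 1 male mouse aged 25 months with the genotype p16-CreERT2/R26-LSL-tdTomato. In this genotype a tamoxifen-inducible Cre recombinase is driven by the promoter of p16 (Cdkn2a), and recombination switches on a red fluorescent protein, tdTomato, encoded at Rosa26. The mouse received tamoxifen intraperitoneally on 5 consecutive days and the bladder was taken 2 weeks later, so tdTomato marks cells that activated the driver around the injections, whether or not they held Cdkn2a RNA at harvest. CD45-negative, DAPI-negative cells were sorted into Tomato-positive and Tomato-negative fractions, and each fraction gave 1 library with droplet-based 3' chemistry, in a study whose title concerns senescent fibroblasts of the aged bladder and CXCL12. With 1 library per group and both from the same animal, no difference has a replicate check and no test between groups was possible. Intervals are exact 95% intervals and cover counting error only.

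MHC class II molecules are pairs of an alpha and a beta chain that display peptides to CD4 T cells. Their genes, together with the invariant chain Cd74 and the peptide-loading genes H2-DMa and H2-DMb1, are switched on by the co-activator CIITA, which is active in professional antigen-presenting cells and inducible by interferon gamma in many stromal, epithelial and mesothelial cells. Angptl7 encodes a secreted angiopoietin-like protein best known from the cornea and the trabecular meshwork of the eye. Mesothelial cells form the serosal covering of abdominal organs, the bladder dome included, and carry Wt1, Msln, Upk3b and Lrrn4. On GRCm38, Angptl7 (ENSMUSG00000028989) lies at chr4:148495183-148500460 on the minus strand, inside Mtor on the other strand, and overlaps 0 of its exons. Cdkn2a lies at chr4:89274471-89294653 on the minus strand. The class II genes lie together on chromosome 17, with H2-Ab1 at chr17:34257689-34269419, H2-Aa (ENSMUSG00000036594) at chr17:34282744-34287823 and H2-Eb1 at chr17:34305867-34316674. H2-DMb1 lies beside them at chr17:34153072-34160230.

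The promoters of 3 of the class II genes the results turn on are shown because these genes were present together in the members. They are RefSeq sequences on GRCm38.p6, from 250 bases before to 50 bases after the transcription start, and 4 of 6 genes looked up were matched. Class II promoters are known to share X and Y boxes. Capitals mark TGATTGG, which contains an inverted CCAAT, the core of the Y box, and AACTGATG. Both strings were chosen after the sequences had been read and were searched on both strands.
H2-Aa, chr17:34287774-34288073, minus strand: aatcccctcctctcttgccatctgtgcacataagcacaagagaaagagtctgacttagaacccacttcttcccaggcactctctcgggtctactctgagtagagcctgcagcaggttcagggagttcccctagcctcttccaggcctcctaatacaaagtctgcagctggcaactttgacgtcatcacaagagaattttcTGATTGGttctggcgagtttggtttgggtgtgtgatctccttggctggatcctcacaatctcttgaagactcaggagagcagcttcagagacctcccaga
H2-Eb1, chr17:34305617-34305916, plus strand: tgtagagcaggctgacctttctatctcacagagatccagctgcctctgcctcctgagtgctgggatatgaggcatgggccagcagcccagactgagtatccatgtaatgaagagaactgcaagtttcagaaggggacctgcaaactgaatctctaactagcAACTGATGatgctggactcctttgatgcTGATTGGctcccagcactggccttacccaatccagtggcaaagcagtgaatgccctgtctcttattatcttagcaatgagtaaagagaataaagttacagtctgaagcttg
H2-DMb1, chr17:34152941-34153240, plus strand: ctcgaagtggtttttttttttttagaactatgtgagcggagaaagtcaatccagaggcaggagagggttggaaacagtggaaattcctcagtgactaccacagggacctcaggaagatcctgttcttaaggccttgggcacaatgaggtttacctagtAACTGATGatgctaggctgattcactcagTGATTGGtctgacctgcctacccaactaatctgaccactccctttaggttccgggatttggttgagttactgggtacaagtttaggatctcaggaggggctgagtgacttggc
TGATTGG began 50 bases before the start in H2-Aa, 61 in H2-Eb1 and 63 in H2-DMb1. AACTGATG began 28 bases further upstream in H2-Eb1 and 29 in H2-DMb1. Of 32851 promoters of the same length, 7.82% held TGATTGG, 0.776% held AACTGATG and 0.0852% held both. A match is a description of the letters and says nothing of binding.

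The Tom+ library held 2783 barcodes and 34455896 UMIs, and the Tom- library 13551 barcodes and 197232860 UMIs. The members were deep cells, with median totals of 22860 UMIs in Tom+ and 27794 in Tom-, against 8394 and 11610 in other stromal cells. No member had under 5000 UMIs, of 239 Tom+ and 1127 Tom- passing cells in that range. In Tom-, members made up 0.234% of cells with 5000 to 10000 UMIs, 0.867% with 10000 to 20000, 3.25% with 20000 to 40000 and 2.45% from 40000 upward. A rule on raw UMIs reaches deep cells more easily, and the part of depth in the members' number was not tested beyond these shares. Of all barcodes, 966 occurred in both libraries, and 16 of the 25 Tom+ members but 1 of the 125 Tom- members carried such a barcode. The named genes were therefore chosen in Tom-, and Tom+ levels of the main genes are given again without these barcodes. Doublets were not removed: Scrublet called 1 of 25 Tom+ and 15 of 125 Tom- members, 10.7% of all members, against 0.689% of passing Tom+ and 6.80% of passing Tom- barcodes.

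The label of the set was checked against marker genes. Collagen, decorin and lumican UMIs reached the stromal level of 3000 CPM (UMIs scaled to a total of 1000000 for the population or cell) in 149 of the 150 members. The members split into 3 subgroups on other markers. The largest held 95 members, 16 in Tom+ and 79 in Tom-, with at least 3 UMIs over Upk3b, Msln and Lrrn4 and under 2 over Epcam and Cdh1. They are called mesothelial-gate members. A further 15 members, 1 in Tom+ and 14 in Tom-, held at least 2 UMIs of the epithelial adhesion genes Epcam and Cdh1. Of these, 12 were called doublets, and in Tom- they had a median of 53788 UMIs, with 362 CPM of the basal keratin Krt5 and 832 CPM of the uroplakin Upk1a. The last 40 members, 8 in Tom+ and 32 in Tom-, passed neither gate, and 36 of them met the gate for stromal cells. They are called neither-gate members, and 0 of them were called doublets. The label of a single cell type thus did not hold for the whole set, and the results are given for the subgroups as well. The subgroups were drawn after the members' markers had been seen.

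**Figure D1:**
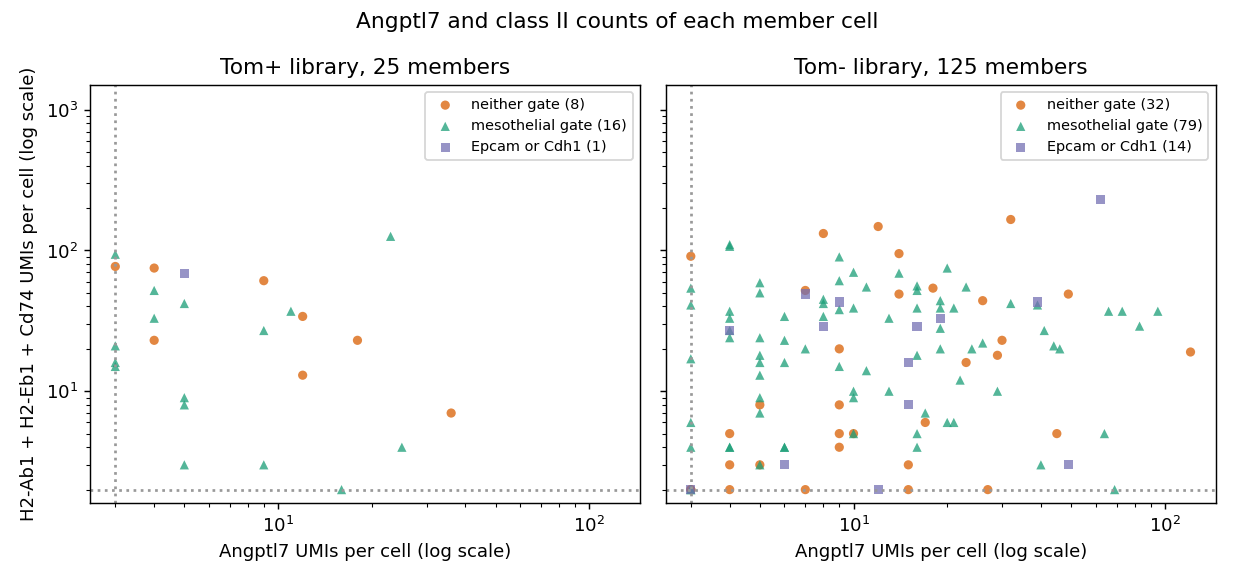
UMIs of Angptl7 (x, log scale) against summed UMIs of H2-Ab1, H2-Eb1 and Cd74 (y, log scale) in each of the 25 Tom+ members (left) and 125 Tom- members (right), with points by subgroup and dotted lines at the thresholds of the rule. Neither-gate and mesothelial-gate members overlap over the whole range, and members run from 2 to 230 class II UMIs.

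Class II content varied widely among members. In Tom+ the summed class II UMIs per cell ran from 2 to 126 with a median of 23, and in Tom- from 2 to 230 with a median of 20. Angptl7 ran from 3 to 36 UMIs in Tom+ with a median of 5, and from 3 to 121 in Tom- with a median of 10. Over both libraries, 29 members had 2 to 4 class II UMIs, 40 had 5 to 19, 52 had 20 to 49 and 29 had at least 50. The plot of class II against Angptl7 UMIs shows every one of these cells. At the edges of the rule, the 16 members with exactly 3 Angptl7 UMIs held 173 CPM of H2-Aa, against 362 CPM in the 33 cells just outside it with exactly 2. The 12 members with exactly 2 class II UMIs held 3.13 CPM of H2-Aa, against 0.953 CPM in the 44 cells with exactly 1. The groups at the Angptl7 edge both had at least 2 class II UMIs with no upper limit. Those at the class II edge had exactly 2 or 1. The rule thus largely fixes the contrast in H2-Aa between the 2 edges, which is a description.

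By summed level, the rule's own beta chain genes were highest in the neither gate, with a few cells holding much of it in Tom-. There the median of summed class II was 8 UMIs per neither-gate cell, against 23 per mesothelial-gate cell, and the median of H2-Ab1 was 3 in both. H2-Ab1 stood at 627 CPM (Tom+) and 454 CPM (Tom-) in neither-gate members, against 16.1 and 17.3 CPM in other stromal cells, and in mesothelial-gate members at 270.3 and 203 CPM, against 185 and 274 CPM in other mesothelial cells. H2-Eb1 stood at 666 and 427 CPM in the neither gate and 237 and 192 CPM in the mesothelial gate. Cd74 differed less between them, at 710.4 and 739.9 CPM in the neither gate and 574 and 584 CPM in the mesothelial gate.

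H2-Aa, the alpha chain that pairs with H2-Ab1, was not used by the rule. It stood at 254 CPM in Tom+ members (interval 217 to 296) and 175 CPM in Tom- members (162 to 189). Other stromal cells held 12.2 CPM in Tom+ (9.78 to 15.0) and 8.91 CPM in Tom- (8.17 to 9.69), so that in Tom- the members were 19.7 times higher (17.5 to 22.1). The members were selected on genes of the same complex, so this ratio is a description. At least 1 UMI of H2-Aa was found in 18 of 25 Tom+ members (72%) and 86 of 125 Tom- members (68.8%), and in 2.26% of Tom+ and 5.42% of Tom- urothelial cells, whose median depths were 36264 and 37913 UMIs. With each cell thinned to 2000 UMIs the shares with H2-Aa were 44% in Tom+ and 26.4% in Tom- members, against 1.69% and 1.52% in other stromal cells. The spread between members was wide, since H2-Aa ran from 0 to 27 UMIs per cell in Tom+ and from 0 to 50 in Tom-.

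The subgroups differed in H2-Aa level. Neither-gate members held 358 CPM in Tom+ (271 to 465) and 354 CPM in Tom- (310 to 404). Mesothelial-gate members held 207 CPM in Tom+ (167 to 253) and 142 CPM in Tom- (127 to 159), against 180 CPM (164 to 197) and 252 CPM (244 to 260) in other mesothelial cells. In Tom+ these intervals overlapped and in Tom- the members were the lower. The neither-gate level rested on few cells: in Tom- the 5 richest of 32 cells held 66.2% of the H2-Aa UMIs, and 142 CPM remained without them. The 8 neither-gate Tom+ members held 0, 2, 3, 5, 6, 7, 13 and 20 UMIs of H2-Aa. All but the cell with the most Angptl7, 36 UMIs, had some. With barcodes of both libraries left out, 9 Tom+ members remained, with 363 CPM of H2-Aa (274 to 473), and the 5 neither-gate cells among them held 498 CPM.

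The peptide-loading genes were present beside the chains. H2-DMa, a chain of the exchange factor that loads peptides onto class II, stood at 37.4 CPM in Tom+ members (24.0 to 55.7) and 15.9 CPM in Tom- members (12.1 to 20.4), against 1.94 and 1.85 CPM in other stromal cells. H2-DMb1, its partner, stood at 42.1 CPM in Tom+ (27.8 to 61.3) and 41.6 CPM in Tom- members (35.3 to 48.7), against 6.93 and 6.63 CPM in other stromal cells and 41.4 and 39.9 CPM in other mesothelial cells. Neither-gate members had 57.6 CPM of H2-DMb1 in Tom+ and 65.3 CPM in Tom-. Ciita, the co-activator of the whole group, was sparse, with 3 UMIs in 3 Tom+ members and 11 UMIs in 8 Tom- members. This gave 4.68 CPM in Tom+ members and 2.96 CPM in Tom- members, against 0.139 and 0.330 CPM in other stromal cells. In neither-gate members Ciita reached 12.8 CPM (Tom+) and 9.33 CPM (Tom-), and in other mesothelial cells 3.06 and 4.51 CPM. The neither-gate values rest on 2 UMIs in 2 Tom+ cells and 6 UMIs in 4 Tom- cells, of which 1 cell held 3.

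**Figure D2:**
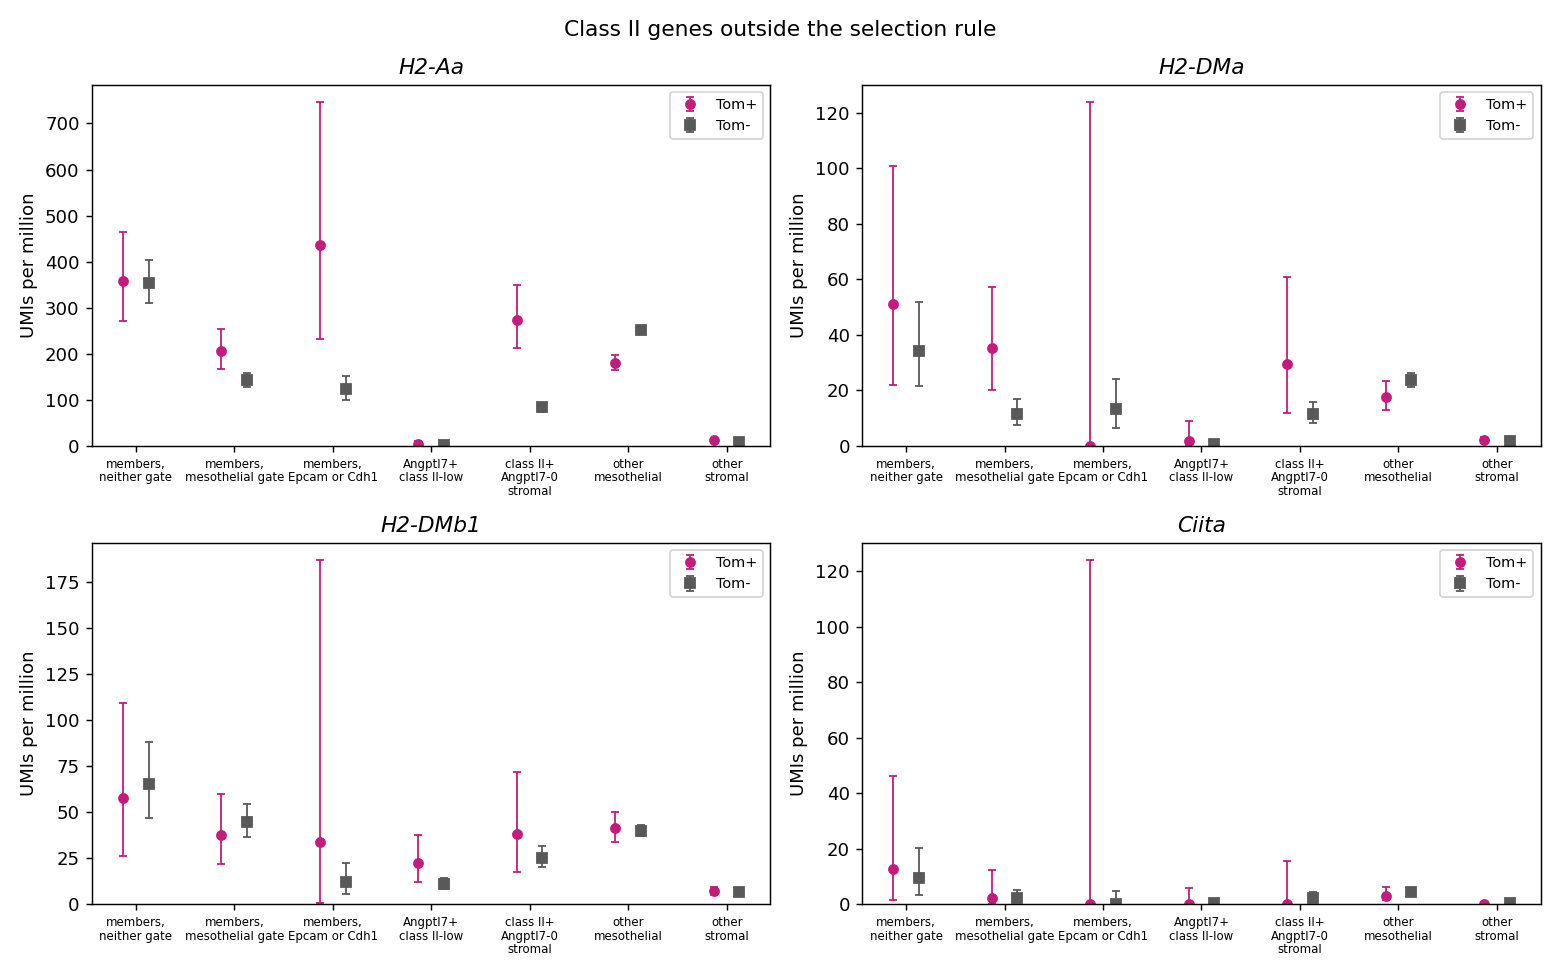
Levels of H2-Aa, H2-DMa, H2-DMb1 and Ciita in CPM with exact 95% Poisson intervals (counting error only) in the 3 subgroups of members and 4 comparison populations, with Tom+ as circles left of Tom- as squares. Levels in neither-gate members are at or above those of the other populations in Tom- for all 4 genes, while other stromal cells lie lowest or near the Angptl7-positive class II-low cells.

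Angptl7-positive cells with class II UMIs of 0 or 1 (31 in Tom+ and 219 in Tom-) were nearly without H2-Aa, at 3.19 CPM (Tom+) and 1.32 CPM (Tom-), a value the rule largely fixes. Their H2-DMb1 levels were 22.4 and 10.8 CPM, and their Ciita levels 0 and 0.442 CPM. In stromal cells with class II but no Angptl7 UMI (23 in Tom+ and 226 in Tom-), H2-Aa stood at 274 and 83.5 CPM. Several class II pathway genes that most cells use were within 2-fold of other stromal cells in the Tom- members as a whole. Rfx5, a subunit of the factor that binds the X box, stood at 12.1 CPM in Tom- members and 9.04 CPM in other stromal cells, and Rfxap at 19.4 and 22.6 CPM. Ctsl, a lysosomal protease, stood at 950 CPM in Tom- members and 1038 CPM in other stromal cells. Lgmn, a second such protease, reached 147 CPM in Tom- members and 87.6 CPM in other stromal cells, with 288 CPM in neither-gate members. Over the class II list 3 of 12 measured genes were at least 2 times higher and 1 lower in Tom- members, with a median log2 ratio of 0.13, against -0.03 over all 9490 genes, of which 9.62% were at least 2 times higher and 9.16% lower.

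Parts of the pathway typical of professional antigen-presenting cells were at 0 UMIs in the members of both libraries. These were H2-DMb2, the inhibitory subunits H2-Oa and H2-Ob, H2-Eb2, the protease Ctss, and the costimulatory genes Cd86 and Cd40, while Cd80 had 0 UMIs in Tom+ and 2 in Tom- members. For each such gene, as for Ctss, 3 UMIs would correspond to 4.68 CPM (Tom+) and 0.806 CPM (Tom-) in members, the limit a count of 0 allows. Of 26 immune markers, 3 had a UMI in Tom+ and 11 in Tom- members, with summed levels of 6.24 and 13.2 CPM and at most 1 and 4 UMIs in any member. Other stromal cells held 8.04 and 9.80 CPM of these markers and other mesothelial cells 14.9 and 11.9 CPM, while the Angptl7-positive class II-low cells held 9.58 and 7.73 CPM. Tyrobp, an adaptor of myeloid receptors, was at 0 UMIs in members of both libraries.

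Over all depths, class II differed in opposite directions in the stromal and the mesothelial gate between cells with at least 3 Angptl7 UMIs and cells with 0. Among stromal-gate cells, 25.8% of Tom+ (8 of 31) and 14.1% of Tom- cells (28 of 199) with at least 3 Angptl7 UMIs had at least 2 class II UMIs, against 3.42% (23 of 673) and 4.95% (226 of 4568) of cells with 0. H2-Aa stood at 121 CPM in the Tom+ (91.5 to 157) and 65.0 CPM in the Tom- stromal cells with at least 3 Angptl7 UMIs (56.5 to 74.3). Those with 0 held 11.5 CPM (8.95 to 14.5) and 7.64 CPM (6.91 to 8.43), and those with 1 or 2 lay between at 22.2 and 24.5 CPM. In Tom- 21 of the 199 stromal cells with at least 3 Angptl7 UMIs held any H2-Aa, and the class II share of those with 1 or 2, 4.55%, was close to that of cells with 0. The stromal difference thus lay in a minority of cells with at least 3 Angptl7 UMIs. Among mesothelial-gate cells, cells with at least 3 Angptl7 UMIs had at least 2 class II UMIs in 69.6% (Tom+) and 76.0% (Tom-) of cases, against 84.1% and 86.3% of cells with 0. H2-Aa stood at 139 CPM in Tom+ (113 to 170) and 109 CPM in Tom- (97.7 to 122) among mesothelial-gate cells with at least 3 Angptl7 UMIs, against 207 CPM (188 to 227) and 270 CPM (262 to 279) in those with 0. Mesothelial-gate cells with 1 or 2 held 107 CPM in Tom+ (69.5 to 159) and 223 CPM in Tom- (204 to 244). Over all depths, the mesothelial-gate cells with at least 3 Angptl7 UMIs thus held less H2-Aa than those with 0.

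Depth moved with these groups. In Tom- the mesothelial-gate cells with at least 3 Angptl7 UMIs had a median of 29122 UMIs, against 19527 in those with 0, and stromal-gate cells 15939, against 11401. Within 20000 to 40000 UMIs, H2-Aa in Tom- mesothelial-gate cells was 97.2 CPM (84.0 to 112) with at least 3 Angptl7 UMIs and 256 CPM (245 to 268) with 0. Within 10000 to 20000 UMIs the values were 310 CPM (253 to 376) and 337 CPM (320 to 354), whose intervals overlap. Cells with 1 or 2 Angptl7 UMIs held more there, 505 CPM (435 to 583). Summed class II in that range was 1723 CPM (1584 to 1871) with at least 3 Angptl7 UMIs and 2302 CPM (2258 to 2347) with 0, whose intervals do not overlap. In stromal-gate Tom- cells H2-Aa was 65.1 CPM (53.4 to 78.5) with at least 3 Angptl7 UMIs and 6.61 CPM with 0 within 10000 to 20000 UMIs, and 76.0 and 11.4 CPM within 20000 to 40000. The stromal difference was present in both depth ranges.

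**Figure D3:**
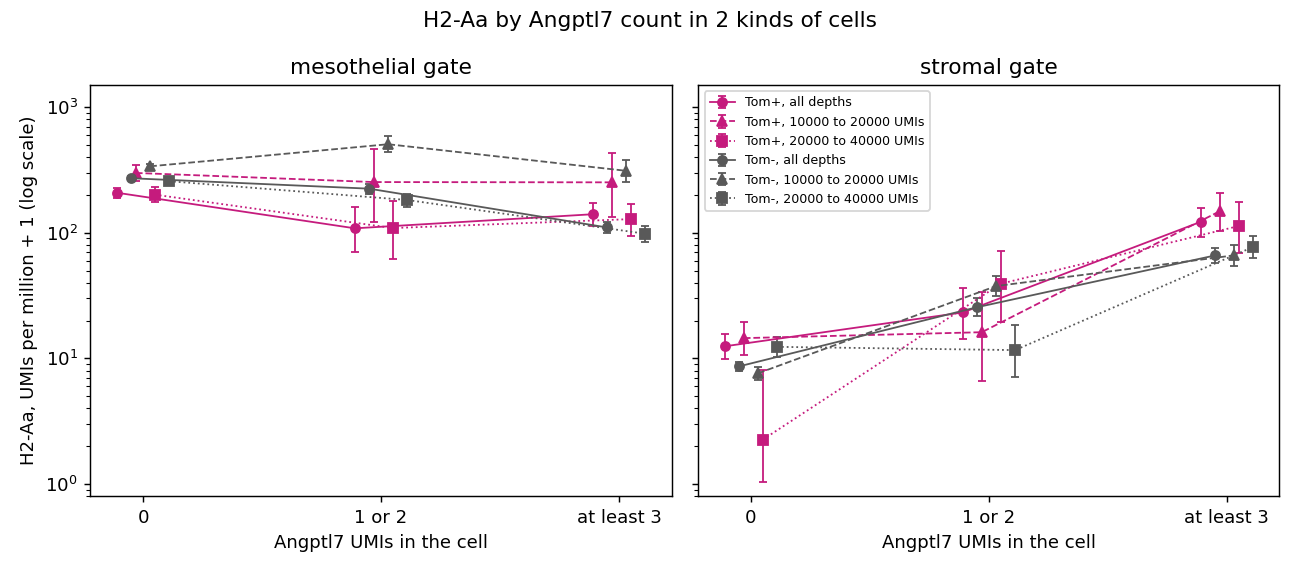
H2-Aa level (CPM plus 1, log scale, with exact 95% intervals) in cells with 0, 1 or 2, and at least 3 Angptl7 UMIs, for the mesothelial gate (left) and the stromal gate (right), in all cells and within 2 ranges of total UMIs. Cells with at least 3 Angptl7 UMIs lie above cells with 0 in the stromal gate at each depth, and below them in the mesothelial gate over all cells, while cells with 1 or 2 do not always lie between.

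Angptl7 itself was an uncommon transcript. At least 3 UMIs occurred in 15.9% of Tom+ and 12.7% of Tom- mesothelial-gate cells and in 4.04% and 3.85% of stromal-gate cells. In urothelial cells the shares were 0.375% and 1.41%, and in blood endothelial cells 0% and 0.782%. Of 8 measured markers of the trabecular meshwork and cornea, where Angptl7 is best known, 3 were higher and 4 lower in Tom- members than in other stromal cells, with a median log2 ratio of -0.87. Over all genes 9.62% were higher and 9.16% lower in that comparison. By level, Tom- neither-gate members held 911 CPM of Angptl7 (839 to 988) and mesothelial-gate members 601 CPM (570 to 634). Tom+ members held less, 627 CPM in the neither gate (509 to 764) and 292 CPM in the mesothelial gate (245 to 346).

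The 125 Tom- members were next compared with other Tom- stromal cells. Those stromal cells were gated to under 3 UMIs of Upk3b, Msln and Lrrn4 and under 2 of Epcam and Cdh1, so differences in mesothelial and epithelial markers are partly fixed by the gate and are a description. All 10 measured mesothelial markers were at least 2 times higher, where 9.62% of all genes were. Their median log2 ratio was 5.20, on a scale with 1 CPM added. All 6 measured genes of the antigen-presenting fibroblast list, which include mesothelial genes, were higher with a median of 5.22. Cxcl5, a chemokine for neutrophils, ranked first on that scale at 911 CPM in members, against 7.67 CPM in other stromal cells (119 times, 108 to 131). It was followed by Lrrn4, a neuronal leucine-rich repeat protein found in mesothelium, with 271 CPM in members and 1.70 CPM in other stromal cells. Saa3, an acute-phase serum amyloid, reached 6004 CPM in members and 59.6 CPM in other stromal cells. Slpi, an inhibitor of neutrophil proteases, reached 1920 and 21.0 CPM. Upk3b and Msln, which define the mesothelial gate, stood at 456 and 218 CPM in members, against 4.43 and 1.80 CPM. Upk3b, Msln and Lrrn4 gate the mesothelial subgroup, and Cxcl5, Saa3 and Slpi were used by no gate. Most UMIs of these last 3 genes in Tom- members still lay in the mesothelial-gate members. Those held 3093 of 3392 UMIs for Cxcl5, 20432 of 22347 for Saa3 and 6684 of 7145 for Slpi. Other Tom- mesothelial cells, which the stromal gate leaves out, held 431 CPM of Cxcl5.

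Among the next genes were the mucin Muc16, at 158 CPM in Tom- members and 2.18 CPM in other stromal cells, and the virus receptor and junction protein Cxadr, at 336 and 5.85 CPM. Gpm6a, a membrane glycoprotein of neurons and mesothelium, stood at 225 and 3.97 CPM, and the desmosomal cadherin Dsg2 at 152 and 4.16 CPM. Chil1, a chitinase-like secreted protein, stood at 127 CPM in members and 0.743 CPM in other stromal cells. Pkhd1l1 reached 329 and 4.48 CPM, Prr15 147 and 1.88 CPM, Upk1b 379 and 6.67 CPM, and the galectin Lgals7 166 and 3.17 CPM. All 12 measured urothelial markers, several of which (Krt8, Krt18, Krt19 and Upk1b) mesothelium also carries, were higher too, with a median log2 ratio of 3.61. Over all genes 9.62% were higher. The summed level of these markers was 1438 CPM (Tom+) and 2259 CPM (Tom-) in members, against 68.5 and 107 CPM in other stromal cells. Of the Tom- members' UMIs, the 14 cells with Epcam or Cdh1 held 275 of 290 for Krt5 and 632 of 646 for Upk1a. Of those 14 cells, 12 were called doublets. In neither-gate members the summed level was 314 and 104 CPM, and 0 of 5 measured urothelial markers were at least 2 times higher in Tom-, where 8.15% of all genes were.

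Lower in the members were genes of the Car3-, Tnc- and Dkk2-bearing stroma. Car3, a carbonic anhydrase, stood at 27.9 CPM in Tom- members and 781 CPM in other stromal cells. Tcf21, a transcription factor of visceral fibroblasts, stood at 55.9 and 1108 CPM. The neuropeptide gene Cck stood at 3.76 and 114 CPM and Ppp1r14a, an inhibitor of myosin phosphatase, at 3.49 and 100 CPM. Hsd11b1, which regenerates active glucocorticoid, stood at 9.40 CPM in members and 226 CPM in other stromal cells, the collagen Col8a1 at 9.14 and 204 CPM, and Asz1 at 7.52 and 167 CPM. The receptor gene Calcrl stood at 9.67 and 205 CPM, Apod at 11.8 and 247 CPM, and Sparcl1 at 61.3 and 1189 CPM. Of the Car3 and Tnc list, 2 of 12 measured genes were higher and 9 lower (median log2 ratio -3.80). Of the matrix glycoproteins, 3 of 45 were higher and 30 lower, with a median of -1.67. Over all genes in Tom- 9.62% were higher and 9.16% lower. In Tom+ 947 of 9397 genes (10.1%) were higher and 1432 (15.2%) lower, and 592 genes were higher in both libraries, 64.8% of the Tom- and 62.5% of the Tom+ calls.

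Set against Angptl7-positive class II-low cells, fewer genes stood apart: of 9272 measured in Tom-, 3.76% were at least 2 times higher and 5.36% lower in members. Trem2, a lipid-sensing receptor known from macrophages and microglia, ranked first at 190 CPM in members and 15.5 CPM in class II-low cells, 12.3 times. Ccl2, a chemokine for monocytes, stood at 541 and 119 CPM, and Wt1, the transcription factor of mesothelium and kidney, at 394 and 118 CPM. The drug exporter gene Abcb1b stood at 216 and 49.7 CPM, Podxl, a sialomucin of mesothelium and podocytes, at 119 and 27.2 CPM, and haptoglobin, Hp, at 599.5 and 161 CPM. The integrin gene Itgb8 stood at 158 CPM in members and 43.7 CPM in class II-low cells, and Rspo1, an enhancer of Wnt signals, at 203 and 56.8 CPM. Col8a1 was lower, with 9.14 CPM in members and 161 CPM in class II-low cells, as were Sparcl1 (61.3 and 819 CPM), the methyltransferase Inmt (31.98 and 371 CPM) and the receptor Npy1r (31.98 and 310 CPM). Gelsolin, Gsn, an actin-severing protein, stood at 940 CPM in members and 8289 CPM in class II-low cells, Akap12 at 105 and 872 CPM and Ifitm1 at 37.3 and 312 CPM. Of the class II-low cells, 23 of 31 in Tom+ and 171 of 219 in Tom- met the stromal gate, so the subgroups of members and of these cells differ in makeup.

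Trem2 is a myeloid gene by its usual site, and it was also high in other mesothelial cells, at 613 CPM (Tom+) and 897 CPM (Tom-). Mesothelial-gate members held 277 and 180 CPM of Trem2. Tom+ and Tom- neither-gate members held 429 and 202 CPM, of which 1 cell gave 91.0% of the UMIs in Tom+ and 43.1% in Tom-. Most neither-gate cells therefore held little Trem2.

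The 79 Tom- mesothelial-gate members were close to the 740 other mesothelial cells outside the rule. Of 8898 genes, 0.865% were at least 2 times higher and 2.6% lower. Ncam1, a neural cell adhesion molecule, was higher at 132 CPM in the members, against 41.7 CPM in other mesothelial cells (3.17 times), and likewise at 138 and 44.1 CPM in Tom+. Lpl, lipoprotein lipase, stood at 150 CPM in Tom- members and 41.9 CPM in other mesothelial cells, and Cxcl5 at 1334 and 431 CPM. Enpp2, which makes lysophosphatidic acid, stood at 716 and 263 CPM, and Hp at 889 and 332 CPM. The contractile genes Tagln and Acta2 stood at 390 and 504 CPM in the members, against 127.5 and 197 CPM. In Tom+ Tagln was likewise higher, at 354 and 68.2 CPM, but Acta2 ran the other way, at 160.4 and 218 CPM. The collagen list had a median log2 ratio of 0.54 over 21 measured genes, with 1 at least 2 times higher and 1 lower.

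The lowest-ranked genes of the mesothelial-gate members shared no list, and of the 10 mesothelial markers 1 was at least 2 times lower in Tom- and 3 in Tom+. Prg4, lubricin, stood at 100 CPM in Tom- members and 971 CPM in other mesothelial cells, and at 72.5 and 576 CPM in Tom+. Myl7, an atrial myosin light chain, stood at 2.59 and 170 CPM in Tom-, with 0 UMIs in Tom+ members. The ion pump regulator Fxyd3 stood at 18.1 CPM in Tom- members and 297 CPM in other mesothelial cells, Adam23 at 29.3 and 373 CPM and Smoc2 at 25.9 and 302 CPM. The water channel Aqp1 stood at 28.5 CPM in the members and 181 CPM in other mesothelial cells, and Anxa8 at 37.9 and 225 CPM. Class II genes did not share a direction: 0 of 12 were at least 2 times higher or lower, with a median of -0.09, and Msln stood at 308 and 535 CPM. In Tom+ 2.45% of 8946 genes were higher and 8.56% lower, and 19 genes were higher in both libraries, 24.7% of the Tom- and 8.68% of the Tom+ calls.

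By summed level, the 32 Tom- neither-gate members held collagen like other stromal cells, and some mesothelial genes, but not evenly over cells. Col1a1 stood at 3866 CPM in these members and 3952 CPM in other stromal cells, and in Tom+ at 2963 and 2808 CPM. Per Tom- cell it ran from 4 to 404 UMIs with a median of 30.5, against a median of 25 in mesothelial-gate members. The cell with 404 held 2 class II UMIs, and the cell with the most H2-Aa, 50 UMIs, held 12 of Col1a1. Wt1 had a UMI in 27 of the 32 cells. Upk3b held 4 UMIs over the 32 Tom- cells and 0 over the 8 Tom+ cells, which the gate fixes. Wt1, which no gate used, stood at 614 CPM (Tom+) and 331 CPM (Tom-) in neither-gate members, against 37.7 and 21.6 CPM in other stromal cells and 358 and 343 CPM in other mesothelial cells. Bnc1, a zinc-finger factor of mesothelium and keratinocytes, stood at 64.0 CPM (Tom+) and 31.1 CPM (Tom-) in neither-gate members, against 1.80 and 1.29 CPM. The summed mesothelial markers were 986 and 605 CPM in neither-gate members, below the 4540 and 4900 CPM of other mesothelial cells and above the 138 and 190 CPM of other stromal cells. Of 18 fibroblast markers 4 were at least 2 times higher and 3 lower in Tom- (median log2 ratio -0.01), where 8.15% of all genes were higher and 8.42% lower. Of 12 adventitial markers 0 were higher and 3 lower in Tom- (median -0.50), and 0 were higher and 11 lower in Tom+ (median -3.92). In Tom+ 13% of all genes were higher and 21.1% lower.

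Of 9371 genes measured, 764 (8.15%) were at least 2 times higher and 789 (8.42%) lower in Tom- neither-gate members than in other stromal cells. Kdr, receptor 2 for vascular endothelial growth factor, ranked first on the log2 scale with 1 CPM added, at 368 CPM in these members, against 12.01 CPM in other stromal cells (30.7 times, 26.4 to 35.6), and at 250 and 26.1 CPM in Tom+. Per cell, Kdr ran from 0 to 79 UMIs in Tom- with a median of 4.5, and 1 cell held 33.3% of its UMIs. Without the 5 richest cells 194 CPM remained. The endothelial genes Pecam1 and Cdh5 were capped by the rule, and Flt1, receptor 1 for the same factor, stood at 19.2 CPM (Tom+) and 12.4 CPM (Tom-) in neither-gate members, against 25.2 and 9.45 CPM. The summed endothelial markers, Kdr among them, were 307 and 476 CPM in neither-gate members and 145 and 132 CPM in other stromal cells. In other mesothelial cells they were 240 and 266 CPM. With shared barcodes left out, other Tom+ mesothelial cells held 100 CPM of Kdr, in 35 of 82 cells. Kdr was thus high in cells where the related receptor gene Flt1 was near the stromal level.

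Ncam1 stood at 608 CPM (Tom+) and 685 CPM (Tom-) in neither-gate members, against 54.2 and 35.1 CPM in other stromal cells. In Tom+ each of the 8 cells held between 4 and 21 Ncam1 UMIs, and in Tom- the 32 cells held from 0 to 41 with a median of 13. With shared barcodes left out, the 5 Tom+ neither-gate members that remained held 699.7 CPM of Ncam1, 323 CPM of Kdr and 699.7 CPM of Wt1, against 50.5, 25.2 and 35.5 CPM in the 734 stromal cells that remained, while their Trem2 level was 80.7 CPM. The summed Schwann cell markers, which include Ncam1, were 883 and 1017 CPM in neither-gate members and 755 and 623 CPM in other stromal cells. Wnt4, a ligand active in the urogenital tract, stood at 1946 CPM (Tom+) and 1612 CPM (Tom-) in neither-gate members, against 166 and 154 CPM in other stromal cells. Myrf, a membrane-bound transcription factor needed for myelination, stood at 134 and 176 CPM, against 9.15 and 6.26 CPM. Cdh3, P-cadherin, stood at 101 CPM in Tom- neither-gate members and 3.07 CPM in other stromal cells (32.9 times, 24.4 to 43.8), the prostaglandin receptor Ptger3 at 197 and 9.27 CPM, and Ltbp2, a protein of elastic fibres, at 238 and 12.4 CPM. Saa3 stood at 1003 and 59.6 CPM, but 5 cells held 96.0% of its UMIs.

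**Figure D4:**
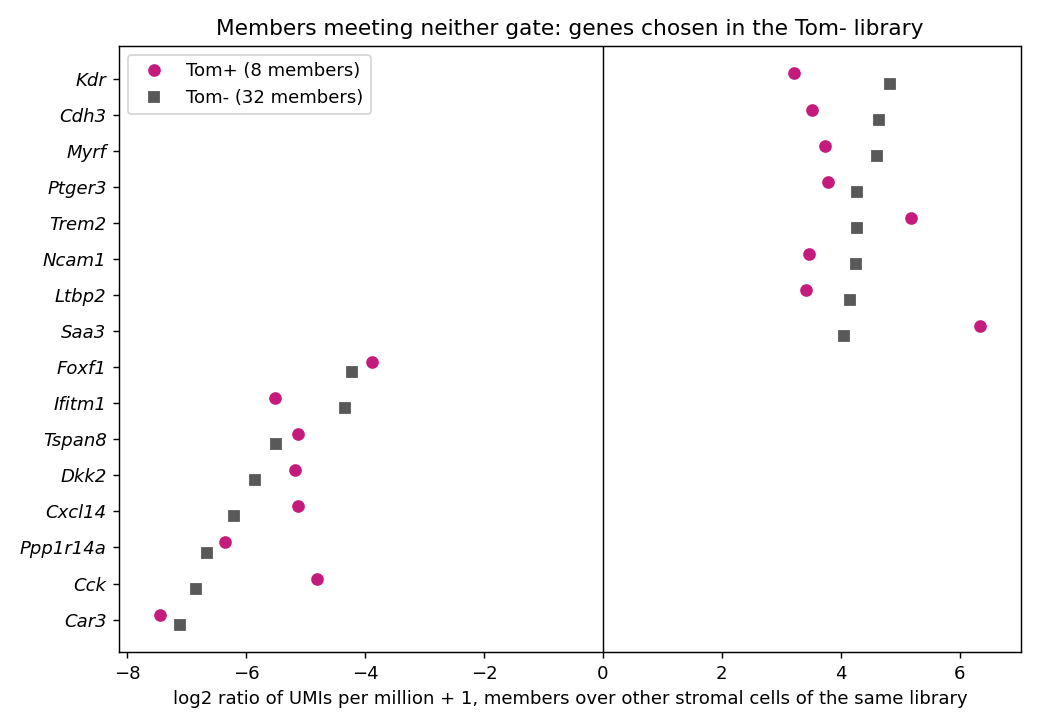
Log2 ratio (CPM plus 1) of neither-gate members over other stromal cells for the 8 highest and 8 lowest genes chosen in Tom-, with 8 Tom+ members as circles and 32 Tom- members as squares. Kdr and Ncam1 lie above 0 in both libraries, and Cck and Ppp1r14a had 0 UMIs in Tom- members, so their ratio depends on the added 1 CPM.

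Lower in neither-gate members were Car3, at 4.66 CPM in Tom- members and 781 CPM in other stromal cells, and the chemokine Cxcl14, at 13.99 and 1106 CPM. Cck and Ppp1r14a had 0 UMIs, where 3 UMIs would be 4.66 CPM, against 114 and 100 CPM in other stromal cells. The Wnt inhibitor Dkk2 stood at 1.55 CPM in these members and 146 CPM in other stromal cells, the tetraspanin Tspan8 at 1.55 and 115 CPM, Ifitm1 at 29.5 and 612.5 CPM, and Foxf1, a factor of gut and bladder mesenchyme, at 6.22 and 133 CPM. Of the 12 measured genes of the Car3 and Tnc list, 9 were lower and 1 higher, with a median log2 ratio of -4.27. Over all genes in Tom- 8.42% were lower and 8.15% higher. In Tom+ 13% of 9482 genes were higher and 21.1% lower, and 436 genes were higher in both libraries, 57.1% of the Tom- and 35.3% of the Tom+ calls.

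Against class II-low cells of the stromal gate, 6.87% of 9211 genes were at least 2 times higher and 8.49% lower in Tom- neither-gate members. Kdr stood at 368 CPM in these members and 45.0 CPM in the class II-low cells, Wnt4 at 1612 and 228 CPM, Myrf at 176 and 17.2 CPM and Runx1, a transcription factor of blood and mesenchyme, at 200 and 21.4 CPM. The ferric reductase gene Steap4 stood at 410 and 55.4 CPM and Col6a5 at 211 and 26.6 CPM. Cdkn1a was lower, at 15.5 CPM in neither-gate members and 158 CPM in class II-low cells, as were Tcf21 (73.1 and 679 CPM) and Ifitm1 (29.5 and 471 CPM).

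Class I antigen presentation was moderately higher in the members. Of 22 measured class I genes, 5 were at least 2 times higher and 0 lower in Tom- members than in other stromal cells, with a median log2 ratio of 0.68, where 9.62% of all genes were higher and 9.16% lower. In Tom+ 10 of 22 were higher and 0 lower, with a median of 0.97, where 10.1% of all genes were higher and 15.2% lower. H2-K1, a class I heavy chain, stood at 1401 CPM (Tom+) and 1467 CPM (Tom-) in members, against 421 and 466 CPM in other stromal cells. Its light chain B2m stood at 1310 and 1126 CPM, against 647 and 595 CPM. H2-Q7 stood at 106 and 68.8 CPM, against 6.38 and 6.29 CPM, and its reads may be split with near-identical H2-Q genes. The immunoproteasome subunit Psmb9 stood at 82.8 CPM in Tom- members and 30.3 CPM in other stromal cells. In neither-gate Tom- members 2 of 22 class I genes were higher, with a median of 0.07, near the share of 8.15% over all genes, and in mesothelial-gate members over other mesothelial cells 0 of 22, with a median of -0.22.

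Of the interferon gamma target genes, in Tom- 6 of 20 measured genes were higher and 2 lower (median log2 ratio 0.75), and in Tom+ 11 of 19 were higher and 2 lower, with a median of 1.20. Over all genes 9.62% were higher and 9.16% lower in Tom-, and 10.1% and 15.2% in Tom+. In Tom- neither-gate members 2 of 17 of these targets were higher and 2 lower (median 0.23), where 8.15% of all genes were higher and 8.42% lower. Gbp2, a guanylate-binding GTPase, stood at 200 CPM (Tom+) and 181 CPM (Tom-) in members, against 46.3 and 56.3 CPM in other stromal cells. Cxcl10, a chemokine for T cells, stood at 92.0 and 133 CPM, against 7.21 and 3.73 CPM, and in neither-gate members at 160 CPM (Tom+) and 3.11 CPM (Tom-). Irf8, a factor of myeloid cells, was lower, at 5.11 CPM in Tom- members and 40.8 CPM in other stromal cells, as was Socs1, a feedback inhibitor, at 6.99 and 22.9 CPM. Ifngr1, the receptor's ligand-binding chain, stood at 70.1 and 132 CPM. Of the 16 type I interferon genes, 4 were higher and 1 lower in Tom- members (median -0.08), against 9.62% and 9.16% over all genes.

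Several chemokine and complement genes differed between the subgroups. Of 14 chemokines, 8 were higher and 5 lower in Tom- members than in other stromal cells, with a median log2 ratio of 1.28, and of 14 complement genes 4 were higher and 2 lower, with a median of 0.52. The shares over all genes in that comparison were 9.62% higher and 9.16% lower. In Tom- neither-gate members 5 of 13 chemokines were higher and 4 lower (median 0.32), and 3 of 15 complement genes were higher and 1 lower (median 0.31). There the shares over all genes were 8.15% higher and 8.42% lower. Ccl2 stood at 590 CPM (Tom+) and 541 CPM (Tom-) in members, against 21.5 and 17.4 CPM, but at 25.6 and 12.4 CPM in the neither gate. C3, the central complement protein, stood at 6280 and 6891 CPM, against 1128 and 912 CPM, and at 2913 CPM in Tom- neither-gate members. Cfb, factor B of the alternative pathway, stood at 219 CPM in Tom- members, 28.0 CPM in neither-gate members and 28.6 CPM in other stromal cells. Masp1, a protease of the lectin pathway, was instead higher in the neither gate, at 89.6 CPM (Tom+) and 49.7 CPM (Tom-), against 5.96 and 2.31 CPM in other stromal cells. Cxcl14 and the eosinophil chemokine Ccl11 were lower in Tom- members, at 72.3 and 12.6 CPM, against 1106 and 87.7 CPM. Cxcl12, the chemokine in the study's title, stood at 31.2 CPM (Tom+) and 19.3 CPM (Tom-) in members, against 649 and 352 CPM in other stromal cells, and at 51.2 and 70.0 CPM in the neither gate.

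In the collagen list 3 of 24 measured genes were higher and 11 lower in Tom- members, with a median log2 ratio of -0.77, and in the neither gate 7 were higher and 5 lower, with a median of -0.02. Over all genes 9.62% were higher and 9.16% lower in Tom- members, and 8.15% and 8.42% in the Tom- neither gate. Collagen VI chains were higher in the neither gate. Col6a1 stood at 1587 CPM (Tom+) and 2013 CPM (Tom-) in neither-gate members, against 776 and 700 CPM in other stromal cells, and Col6a2 at 1133 and 1413 CPM, against 516 and 446 CPM. Col6a5, a less common chain, stood at 269 and 211 CPM, against 36.6 and 25.7 CPM. Fn1, fibronectin, stood at 1773 and 1669 CPM in neither-gate members, against 471 and 644 CPM. Tgfb2, a transforming growth factor, stood at 525 and 583 CPM, against 150 and 96.5 CPM. Igfbp5, which binds insulin-like growth factors, stood at 2318 CPM in all Tom+ and 1809 CPM in all Tom- members, against 306 and 375 CPM. Of 20 Wnt pathway genes, 3 were higher and 11 lower in Tom- members (median -1.73), against 9.62% and 9.16% over all genes. Rspo1 stood at 203 CPM in Tom- members and 11.2 CPM in other stromal cells, while Wnt2 stood at 70.4 and 468 CPM. Of the 5 measured angiopoietin relatives of Angptl7, 1 was higher and 3 lower in Tom- members (median -1.90), and 1 higher and 4 lower in Tom+ (median -2.41). The shares over all genes were 9.62% higher and 9.16% lower in Tom-, and 10.1% and 15.2% in Tom+. Angptl4 stood at 63.7 CPM in Tom- members and 17.2 CPM in other stromal cells, and Angpt1, a ligand for the endothelial receptor Tek, at 9.67 and 39.0 CPM.

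Cdkn2a, a marker named for these cells, was sparse in them. It held 2 UMIs in 2 of 25 Tom+ members, or 3.12 CPM (0.378 to 11.3), and 21 UMIs in 12 of 125 Tom- members, or 5.64 CPM (3.49 to 8.63). Other stromal cells held 10.8 CPM in Tom+ (8.55 to 13.5) and 7.29 CPM in Tom- (6.62 to 7.999). In Tom- the ratio of members to other stromal cells was 0.774 (0.475 to 1.20), so a difference was not detectable at this depth. The value turned on the class II threshold, since with at least 1 class II UMI the level was 10.2 CPM and the log2 ratio 0.47, against -0.32 by the rule. By share, 8% of Tom+ and 9.6% of Tom- members had a Cdkn2a UMI, against 2.89% and 2.43% of other stromal cells, which were shallower. With each cell thinned to 2000 UMIs, 0% of Tom+ members had one and 0.8% of Tom- members, against 0.989% of Tom+ and 0.865% of Tom- stromal cells. In urothelial cells, with the greatest depth, 0.376% of Tom+ and 1.2% of Tom- cells had a Cdkn2a UMI. The neither-gate members held 0 UMIs in Tom+, where 3 UMIs would be 19.2 CPM, and 4 in Tom-, or 6.22 CPM. The 79 Tom- mesothelial-gate members held 17 UMIs in 9 cells. Their summed level was above that of other mesothelial cells, with the log2 ratio given under the dependence on processing. It rested on few cells: 1 held 6 of the 17 UMIs, and 1.85 CPM remained without the 5 richest. After thinning, 2.53% of these members (0.308 to 8.85) and 0.544% of other Tom- mesothelial cells (0.148 to 1.39) had a UMI, and the intervals overlap. The Angptl7-positive class II-low cells held 20.8 CPM in Tom+ (11.1 to 35.5) and 11.7 CPM in Tom- (8.77 to 15.3), and the Car3-, Tnc- and Dkk2-bearing stromal cells 22.2 CPM in Tom-. In Tom- 1 member held 6 of the 21 UMIs. With shared barcodes left out, the 9 remaining Tom+ members held 0 UMIs of Cdkn2a, where 3 UMIs would be 19.8 CPM, against 6.91 CPM in the remaining stromal cells.

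Cdkn1a, the p21 inhibitor of the cell cycle, was lower in most members. It stood at 10.9 CPM in Tom+ (7 UMIs) and 34.7 CPM in Tom- members, against 162 and 140 CPM in other stromal cells. The Tom+ neither-gate members had 0 UMIs and the Tom- ones 15.5 CPM, and mesothelial-gate members had 15.4 and 13.8 CPM, against 76.6 and 48.7 CPM in other mesothelial cells. The 14 Tom- members with Epcam or Cdh1 held 115 CPM of Cdkn1a (92.0 to 141). Cdkn2c, the p18 inhibitor, was higher, at 68.6 CPM (Tom+) and 60.2 CPM (Tom-) in members, against 20.8 and 20.9 CPM in other stromal cells. The next counts lie against shares over all genes of 9.62% higher and 9.16% lower. Of 21 cell cycle inhibitors and related genes, 2 were higher and 3 lower in Tom-, with a median log2 ratio of 0.03, and of 40 secreted factors associated with senescence 12 were higher and 11 lower, with a median of -0.26. The p53 target list had 4 of 20 higher and 5 lower, with a median of -0.22.

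**Figure D5:**
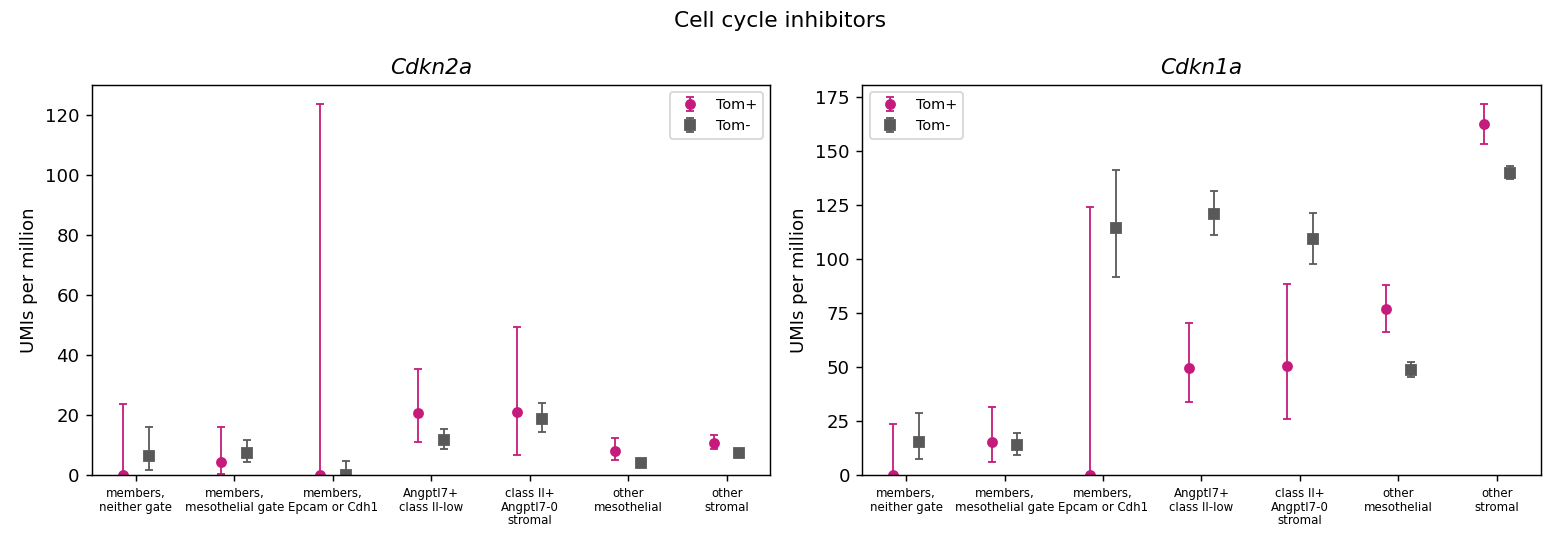
Levels of Cdkn2a and Cdkn1a in CPM with exact 95% Poisson intervals (counting error only) in the 3 subgroups of members and 4 comparison populations, with Tom+ as circles left of Tom- as squares. Cdkn2a lies at 0 to 7.33 CPM in the subgroups of members, and for Cdkn1a the members other than those with Epcam or Cdh1 lie below other stromal cells.

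The members were found in both sorted fractions. Of all 150 members, 16.7% (11.1 to 23.6) were in Tom+, against 12.9% (12.05 to 13.8) of other stromal cells, 14.8% of other mesothelial cells and 12.4% of Angptl7-positive class II-low cells. By subgroup the share was 20% (9.05 to 35.6) in the neither gate and 16.8% in the mesothelial gate. With shared barcodes left out, the share of all members was 6.77%, below that of stromal cells in the full data, so the position of the members relative to them rests on those barcodes. tdTomato RNA was found in 25 of 25 Tom+ members at 1019 CPM and in 39 of 125 Tom- members at 19.9 CPM, against 1848 and 20.9 CPM in other stromal cells. The sorted shares reflect how many cells were loaded from each fraction as well as the tissue.

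Between libraries, 1.57% of 9071 genes were at least 2 times higher in Tom+ than in Tom- members and 5.95% lower. The heat shock gene Hspa1a stood at 131 CPM (Tom+) and 43.3 CPM (Tom-) in members, the matricellular gene Cyr61 at 455 and 163 CPM, and the interferon-inducible GTPase Iigp1 at 125 and 49.4 CPM. Epithelial genes were lower in Tom+ members, with Krt15 at 1.56 CPM (Tom+) and 346 CPM (Tom-), Ly6d at 12.5 and 560 CPM, and Wfdc2 at 10.9 and 444 CPM. The Tom- members included 14 of the 15 cells with Epcam or Cdh1. These genes were not confined to those 14 cells. A UMI was found in 48.8% of Tom- members for Krt15, 63.2% for Ly6d and 48% for Wfdc2, against 4%, 20% and 24% of Tom+ members. The source of this difference was not tested. Within the mesothelial gate 2.01% of 8786 genes were higher and 6.24% lower in Tom+ members. There Tnfrsf11b, the decoy receptor osteoprotegerin, stood at 119 CPM (Tom+) and 20.3 CPM (Tom-), Cyp1b1 at 112 and 32.8 CPM, and Slpi at 692 and 2883 CPM. Of the 16 Tom+ mesothelial-gate members 12 carried a barcode of both libraries, and the part of those barcodes in these differences was not tested.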

How the data were processed

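The deposited files held raw counts (UMIs) per gene and barcode for 31054 features, 1 matrix per library, and how cell barcodes were selected is not given in the sources used here. Cell Ranger 7.0.0 and mm10 are named in the submitters' processing notes, and the matrix headers carry software version 3.0.2. Barcodes were kept from 1000 UMIs and 500 genes upward where mitochondrial UMIs were under 15%. Of a barcode in both libraries a copy was kept only where it was over 10 times deeper. Scrublet, at 0.8% expected doublets per 1000 cells, marked doublets, which were kept in the values.

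UMIs were summed per population and library and scaled to CPM, with exact Poisson, Clopper-Pearson and conditional binomial intervals of 95%. Log2 ratios add 1 CPM. Genes counted as measured from 10 CPM in 1 group and 20 UMIs over both, and as higher or lower at 2-fold. No p-values were computed, since each group is 1 library. A count of 0 is given with the level of 3 UMIs. For thinned shares each cell was reduced to 2000 UMIs. Stromal cells had at least 3000 CPM of collagens, decorin and lumican, under 2 UMIs of Epcam and Cdh1, and under 3 UMIs of each of the mesothelial, Schwann, Myh11 and Rgs5 sets. Coordinates came from a GRCm38 annotation.

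Named genes were the rule's genes, Cdkn2a, Cdkn1a, tdTomato, Cxcl12, H2-Aa and Ciita, the 15 highest and 10 lowest genes of Tom- members over other stromal cells, the 8 highest and lowest over class II-low cells, with at least 100 CPM and UMIs in at least 25% of cells, and the extremes of 34 gene lists. Mitochondrial, ribosomal, haemoglobin and clone-named genes and genes under 5% of their level in another cell class were left out of ranked names. Members and lists were chosen with earlier results of these data known. Subgroups, their comparisons and the genes named from them were added after seeing the data, and some examples were picked after their values were seen. The ratio calculation was tested on simulated data. The alternatives were other cell filters, thresholds of the rule, doublets left out, shared barcodes left out or kept, depth limits, thinning, equal weight per cell, free RNA removal, other pseudocounts and expression filters, and other comparison cells. Analyses used Python 3.11.15, numpy 2.4.6, scipy 1.17.1, pandas 2.3.3, scanpy 1.11.5 and matplotlib 3.10.9.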

Additional observations from a re-analysis of the deposited data

Results flagged for a closer look

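Over all depths, the relation of class II to Angptl7 had opposite signs in the 2 gates, in both libraries. In mesothelial-gate cells the log2 ratio of H2-Aa (CPM plus 1), cells with at least 3 Angptl7 UMIs over cells with 0, was -0.57 in Tom+ and -1.30 in Tom-. In stromal-gate cells it was 3.29 in Tom+ and 2.93 in Tom-. Within 10000 to 20000 UMIs the Tom- mesothelial-gate levels had overlapping intervals, at 310 CPM with at least 3 Angptl7 UMIs and 337 CPM with 0. Those with 1 or 2 held 505 CPM. The difference between the gates was not tested, since each library is 1 sample of the same animal.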

How the results depend on the processing

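No paired analysis was possible because each group was 1 library, and no replicate could be left out. Of the main results, 77 values stayed within set limits under the 18 alternatives chosen at the start and 16 moved. Under 6 alternatives added after seeing the data 17 stayed within these limits, 17 moved and 1 reversed. The limits were the counting interval where there was one, and a set fold for counts. A Cdkn2a log2 ratio that changed sign was not counted as reversed. Values below are for Tom- members over other stromal cells unless named, and the cause of each shift was not tested. The number of members (150) was 95 in the mesothelial gate and 40 in the neither gate, and the Tom+ share (16.7%) was 6.77% without shared barcodes. The log2 ratio of H2-Aa (4.15) was 4.60 with at least 2 Angptl7 UMIs, 3.87 with at least 1 class II UMI, 4.47 with at least 5, 4.56 after thinning, 4.61 with equal weight per cell, 4.42 with 5% of the mean profile removed and 3.70 with 5 CPM added. It was 5.61 against Car3-, Tnc- and Dkk2-bearing cells, 5.17 in the neither gate, 6.24 against class II-low cells, 4.81 in Tom+ without shared barcodes, and -0.82 for mesothelial-gate members over other mesothelial cells. The Cdkn2a level (5.64 CPM) was 10.2 CPM with at least 1 class II UMI, 3.12 CPM in Tom+ and 0 CPM in Tom+ without shared barcodes. Its log2 ratio (-0.32) was 0.47 with at least 1 class II UMI, -1.80 against Car3-, Tnc- and Dkk2-bearing cells, -0.94 against class II-low cells, -1.52 in Tom+, -2.98 in Tom+ without shared barcodes, and 0.74 for mesothelial-gate members over other mesothelial cells. Genes at least 2 times higher (913) numbered 1607 with no filter, 368 with at least 50 CPM, 349 against class II-low cells and 77 in the mesothelial comparison. Genes lower (869) numbered 1448, 384, 497 and 231 in the same order, 1432 in Tom+ and 2231 in Tom+ without shared barcodes. List medians moved in 35 and reversed in 1 of the cases under alternatives chosen at the start, where the smooth muscle and mural list was -0.53 against Car3-, Tnc- and Dkk2-bearing cells. Of the added ones, the mesothelial comparison reversed the antigen-presenting fibroblast (-0.65), matrix glycoprotein (0.061), mesothelial (-0.19) and urothelial (-0.66) lists, class II-low cells the Car3 and Tnc list (0.11) and the neither gate the endoneurial list (0.28). A list median was called reversed only where the main median was at least 1 in size. Smaller medians that changed sign, such as collagens and class I in the mesothelial comparison, are not among these. Depth limits the sparse genes, since 3 UMIs are 4.68 CPM in Tom+ members, against 0.806 CPM in Tom- members for a gene such as Ctss.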

Other observations

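The genes in this and the next paragraph come from the comparisons of members with other stromal cells and were picked after their values were seen. Of the costimulation and checkpoint list in Tom-, 2 of 7 measured genes were higher and 3 lower, where 9.62% of all genes were higher and 9.16% lower. Nectin2, an adhesion molecule and ligand of lymphocyte receptors, stood at 85.2 CPM in Tom- members and 10.9 CPM in other stromal cells, and Perp, a desmosomal p53 target, at 51.3 and 6.06 CPM. Vtcn1, an inhibitory ligand of the B7 family, stood at 15.3 and 0.479 CPM. Cdk6, a cell cycle kinase, stood at 54.8 and 18.1 CPM. Gadd45g, a stress-response gene, was lower at 18.0 and 164 CPM, and Serpine2, a protease inhibitor, at 6.99 and 116 CPM.

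Clu, clusterin, an extracellular chaperone, stood at 1522 CPM (Tom+) and 1440 CPM (Tom-) in members, against 214 and 91.8 CPM in other stromal cells, and at 2374 and 1531 CPM in the neither gate. Pdgfrb, a receptor of pericytes and fibroblasts, stood at 25.6 CPM (Tom+) and 40.4 CPM (Tom-) in neither-gate members, against 126 and 122 CPM in other stromal cells. Pdgfra, a general fibroblast receptor, stood at 301 and 356 CPM, against 530 and 408 CPM.

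Of the other lists in Tom- members over other stromal cells, with 9.62% of all genes higher and 9.16% lower, the neurotrophic list had 2 of 10 measured genes higher and 7 lower (median log2 ratio -2.01), and the endoneurial list 0 of 5 higher and 4 lower (median -1.76). The smooth muscle and mural list had 4 of 8 higher and 2 lower, with a median of 1.02, and the perineurial list 4 of 9 higher and 3 lower, with a median of 0.49.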
